A study of Homo sapiens with 6 samples.

Results

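The 67 genes described here encode deubiquitinases, the proteases that cut ubiquitin from proteins, and were taken by gene symbol: the USP genes (USP9Y left out), UCHL1, UCHL3 and UCHL5, the OTUB and OTUD genes, and BAP1, VCPIP1, YOD1, ZRANB1 and STAMBP. They are 67 of 22496 symbols with a value in at least 1 library. Of them, 59 stood at 1 FPKM or more (fragments mapped to a gene, relative to its length and to the library's mapped total) in 3 or more of 6 libraries and were tested. The other 8 are given at the end. The libraries are poly-A RNA of LoVo, an established human colon adenocarcinoma line: 3 of the non-target genotype, which serves as control, and 3 of the SHARPIN knockout genotype. No other allele, agent or time is labelled. The sources used here do not give whether the knockout line is 1 clone or whether replicates were separate cultures. P-values therefore rest on the spread among these 3 against 3 libraries, and that spread may be technical. Values are listed in the order of replicates 1, 2 and 3, and in "against" pairs the non-target values stand first.

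Ubiquitin is joined to proteins as single units or chains by the E1, E2 and E3 enzymes, and deubiquitinases take it off again. USP, UCH and OTU enzymes are cysteine proteases, whereas STAMBP (AMSH) belongs to the zinc-dependent JAMM family. USPs form the largest family and mostly cut many chain types, OTU enzymes often prefer particular linkages, and UCH enzymes have a narrow active site. SHARPIN is a subunit of the ligase that builds linear chains, which the OTU enzyme OTULIN and the USP-related CYLD take apart. Both of these lie outside the genes taken here.

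The non-target libraries held SHARPIN transcript at 11.9, 13.9 and 12.9 FPKM, and the libraries labelled knockout at 7.55, 11.9 and 18.05 FPKM (log2 fold change -0.12, limma adjusted p = 0.827). The groups overlapped, and a transcript level does not check an edit that leaves the transcript in place, so every direction given here follows the labels. In bulk RNA, fewer cells of a kind and less RNA per cell cannot be told apart. The depth, estimated from the smallest steps between low values, was 21100000 to 22500000 fragments per library, so 1 FPKM was worth about 21.1 to 22.5 fragments per kilobase. The sum of FPKM was 416852 to 431264 in 5 libraries and 522919 in knockout replicate 3. All 12 colon epithelial markers passed the filter: 2 rose (KRT19 and KRT20), 5 fell (GPA33, LGALS4, CDH17, CDX1 and VIL1) and 5 did not pass. The share called was 58.3%, against 12.2% of all genes tested. The keratin KRT19 had 263, 258 and 257 FPKM against 651, 589 and 891, and the intestinal cadherin CDH17 had 68.9, 53.9 and 49.03 against 11.1, 3.25 and 2.95. EPCAM had 198, 192 and 195 against 197, 132 and 165. CDX1 and VIL1, like the fibroblast gene LUM, reached the filter through the non-target libraries alone. Of 14 markers of fibroblasts, endothelium and blood, 1 passed the filter, and together they summed to 8.58 to 19.5 FPKM in non-target and 0.400 to 0.930 in knockout libraries. The one that passed, LUM, had 5.03, 7.52 and 7.45 FPKM against 0.385, 0.199 and 0.151. The leukocyte gene PTPRC was at 0.0360 FPKM or less, and the collagens COL1A1 and COL1A2 were above 1 FPKM in non-target replicate 1 alone, at 6.60 and 6.12. The part of these differences in the results below was not tested.

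USP11 and USP2 rose in the libraries labelled knockout, USP3 fell, and 56 of 59 did not pass the test (limma on log2(FPKM + 1), adjusted over all 13092 genes, threshold 0.05). The 3 genes called are 5.08% of the tested deubiquitinases, where 12.2% of all genes tested were called (6.26% higher and 5.93% lower). Among the 11053 genes within the deubiquitinases' own range of mean level, 11.5% were called. The median log2 fold change was -0.031 over the 59 and 0.018 over all genes, with 28 above and 31 below 0. An unadjusted p under 0.05 was found for 8, or 13.6%, against 25.5% of all genes. A change of 0.5 or more on that scale was fitted for 9, or 15.3%, against 22.4% of all genes, and none reached 1. These shares are descriptions, and their difference from the shares of all genes was not tested.

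For 54 of the 56 that did not pass, the 95% interval of the log2 difference lay between -1 and 1. The exceptions were USP15, at -1.01 to 0.15, and YOD1, at -0.38 to 1.43. Over all genes, called ones included, 78.1% had an interval inside this band. The called USP11 (0.54 to 1.30), USP2 (0.34 to 1.21) and USP3 (-1.12 to -0.33) are not among the 56, and their intervals also left it. The scale understates the change of genes near 1 FPKM. The 3 libraries of 1 genotype lay wholly above or below the other 3 in 15 of 59 (25.4%), 8 higher and 7 lower in knockout, where 32.1% of all genes did so (16.5% and 15.7%).

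Replicate numbers met the criterion used for pairs, but the main fit took no account of them. The criterion cannot establish the pairing of replicates 2 and 3. Their deviations from the group means correlated at 0.309 and 0.331 between matched numbers, and at 0.320 and 0.321 between crossed ones. Values with the block therefore rest on an assumed pairing. With a replicate block 5 deubiquitinases rose and 4 fell, 15.3% of the 59, where 25.3% of all genes passed (13.5% higher and 11.8% lower). Besides USP11, USP2 and USP3 they were USP20, OTUD5 and YOD1, higher, and USP18, USP8 and USP54, lower. That fit leaves each gene 2 residual degrees of freedom, and for 86.4% of genes the spread was taken wholly from other genes. On each gene's own spread 0 passed with the block, with 10 of 59 (16.9%) at an unadjusted p under 0.05, against 19.8% of all genes in that fit.

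**Figure D1:**
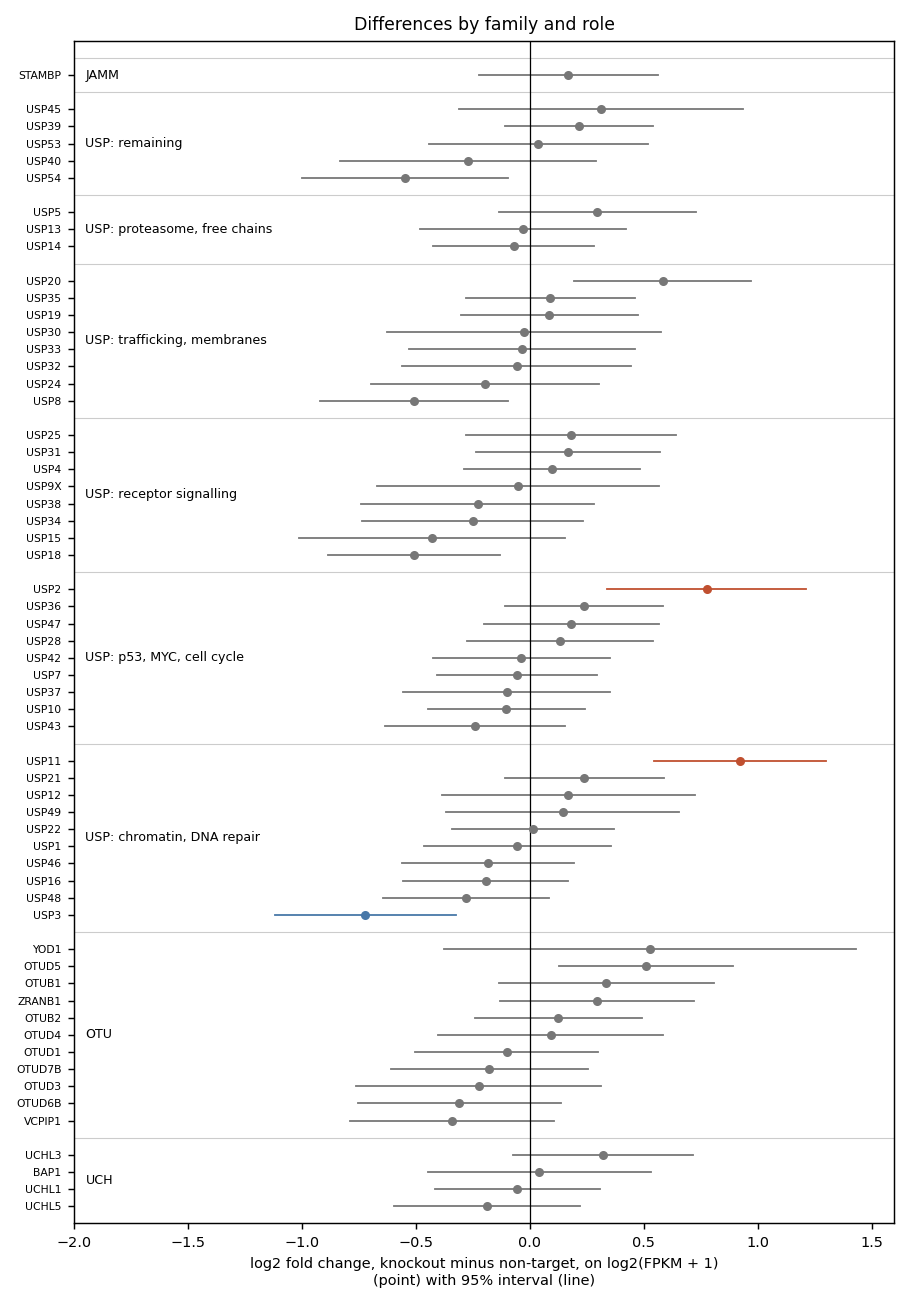
Log2 fold change of each tested deubiquitinase (x axis, knockout minus non-target on log2(FPKM + 1)), grouped by family and role; points are estimates from 3 libraries per group and lines their 95% intervals. USP11 at 0.92 and USP2 at 0.78 (red) and USP3 at -0.72 (blue) are the genes past the threshold, and grey marks the 56 that did not pass.

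The 250 bases upstream of 1 RefSeq start (GRCh38.p14) for each of the 3 genes past the threshold are shown because these are the genes whose transcripts changed. Each gene has several annotated transcripts, and FPKM per gene do not tell which start was used. Capitals mark matches on either strand to common promoter elements, chosen after the called genes were known. They are the TATA box, spelled TATAAA, and the CCAAT box, spelled by its name. The GC box is spelled GGGCGG and the ETS core CCGGAAG. The CRE core is spelled TGACGT. GC boxes overlap each other in USP3. The USP11 window is chrX:47232759-47233008 on the plus strand, that of USP2 is chr11:119364209-119364458 on the minus strand, and that of USP3 is chr15:63504343-63504592 on the plus strand. Each is printed from 5′ to 3′.
USP11: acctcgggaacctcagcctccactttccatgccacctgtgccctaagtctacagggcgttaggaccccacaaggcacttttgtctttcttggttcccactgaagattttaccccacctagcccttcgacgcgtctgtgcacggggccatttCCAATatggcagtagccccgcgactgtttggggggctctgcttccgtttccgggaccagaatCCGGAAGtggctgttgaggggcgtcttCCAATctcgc
USP2: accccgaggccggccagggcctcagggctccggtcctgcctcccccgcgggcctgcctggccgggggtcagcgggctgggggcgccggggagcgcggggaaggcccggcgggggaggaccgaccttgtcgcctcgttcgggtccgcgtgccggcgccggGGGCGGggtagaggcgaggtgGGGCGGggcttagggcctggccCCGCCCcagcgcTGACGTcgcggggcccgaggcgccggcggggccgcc
USP3: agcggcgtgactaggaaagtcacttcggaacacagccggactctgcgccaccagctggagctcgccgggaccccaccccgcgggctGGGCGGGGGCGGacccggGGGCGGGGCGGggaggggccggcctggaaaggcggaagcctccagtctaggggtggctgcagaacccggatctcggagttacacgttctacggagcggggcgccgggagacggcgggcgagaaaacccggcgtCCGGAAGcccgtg
The USP11 window held 2 CCAAT boxes and 1 ETS core with 13 CpGs. The window of USP2 held 3 GC boxes and 1 CRE core with 35 CpGs, and that of USP3 held 4 GC boxes and 1 ETS core with 30. None of the 3 held TATAAA. Over all 34943 windows of this length, 32.03% held a CCAAT box, 42.5% a GC box, 8.48% an ETS core, 7.09% a CRE core and 10.8% a TATA box. Of the 65 windows of 47 tested deubiquitinases, 46 held a GC box, 18 a CCAAT box, 13 an ETS core, 8 a CRE core and 4 a TATA box. Their median was 23 CpGs, against 11 over all windows, which include those of noncoding genes. A match is a string of letters, and binding was not measured.

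USP11 rose at every pseudocount tried. It encodes a deubiquitinase of BRCA2 and of TGF-beta signalling proteins, and a paralog of USP4 and USP15 (chromosome X, 47092265 to 47107727, GRCh37). Non-target libraries held it at 20.5, 14.7 and 17.3 FPKM, and knockout libraries at 34.6, 33.3 and 33.4 FPKM. The lowest knockout library was above the highest non-target one, and the knockout libraries were close to each other. The mean went from 17.5 ± 2.88 to 33.7 ± 0.706 FPKM (± SD, n = 3 libraries). On the log2 scale the difference was 0.92 with a standard error of 0.17 (limma, adjusted p = 0.00606). With each library left out in turn it still passed (highest adjusted p 0.0467). Of its paralogs, USP4 had a log2 fold change of 0.098 and USP15 of -0.43, neither past the threshold.

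USP3, a deubiquitinase of histones H2A and H2B, fell (chromosome 15, 63796710 to 63886839, GRCh37). Non-target libraries held it at 23.4, 17.2 and 17.6 FPKM, and knockout libraries at 11.6, 12.2 and 10.1. Non-target replicate 1 was the highest, and all 3 knockout libraries lay below all 3 non-target ones. The mean went from 19.4 ± 3.46 to 11.3 ± 1.08 FPKM (± SD, n = 3 libraries). On the log2 scale the difference was -0.72 with a standard error of 0.18 (limma, adjusted p = 0.0263). The call was lost when any library except knockout replicate 1 was left out (adjusted p of 0.0646 to 0.077). The antisense gene USP3-AS1 had 7.52, 5.29 and 5.47 FPKM in non-target libraries and 4.05, 4.03 and 3.52 in knockout ones (adjusted p = 0.0983). The sources used here do not give whether counting used strand, so reads of the pair cannot be told apart.

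USP2, a deubiquitinase of MDM2 and cyclin D1, rose from a low level (chromosome 11, 119225925 to 119252421, GRCh37). It had 1.30, 0.808 and 1.29 FPKM in the non-target and 1.89, 3.08 and 3.05 in the knockout libraries. Knockout replicate 1 was nearest to the non-target range but above it. The mean went from 1.13 ± 0.281 to 2.67 ± 0.676 FPKM (± SD, n = 3 libraries). On the log2 scale the difference was 0.78 with a standard error of 0.20 (limma, adjusted p = 0.0299). The size depends on the pseudocount: with 0.1 in place of 1 it was 1.17, above the 0.96 of USP11 at that setting. This call too was lost without any library except knockout replicate 1 (adjusted p of 0.0571 to 0.154), and with no filter on low values (adjusted p = 0.0585). USP2-AS1, its antisense gene, stood at 2.11, 0.971 and 1.51 against 1.61, 1.79 and 1.75 FPKM, so the groups overlapped there.

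**Figure D2:**
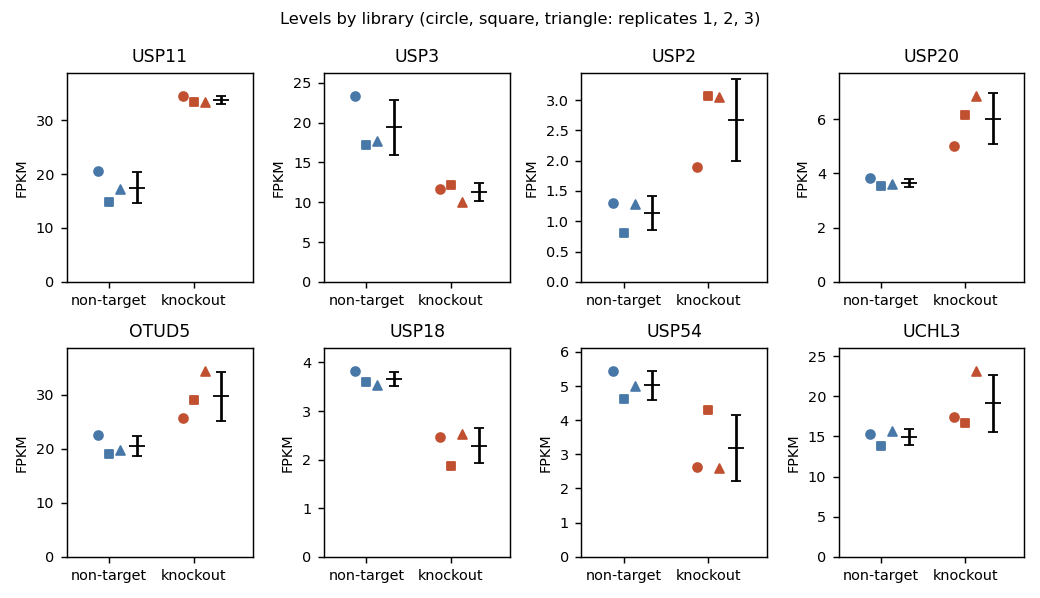
FPKM of 8 deubiquitinases in each library (points; circle, square and triangle are replicates 1, 2 and 3), with the mean and SD of 3 libraries beside them; each axis starts at 0. All 8 are among the 15 of 59 genes without overlap (25.4%, against 32.1% of all genes tested), so the separation in every panel follows from the choice of genes. The test was passed by USP11, USP3 and USP2.

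Among 10 tested USPs of chromatin and DNA repair, USP11 rose, USP3 fell and 8 did not pass, with a median log2 fold change of -0.021. Beside this and the role groups below, the share called over all genes tested was 12.2%. USP22, the catalytic subunit of the SAGA coactivator's deubiquitinase module, was the most abundant at 37.3, 37 and 38.6 FPKM in non-target libraries and 41.1, 40.2 and 33.1 in knockout ones. Its groups overlapped (log2 fold change 0.012, 95% interval -0.34 to 0.37). USP1, which acts on FANCD2 and PCNA with its partner WDR48, had a log2 fold change of -0.054, and USP16, of H2A, one of -0.19. USP48 (-0.28) was lower in all 3 knockout libraries and USP21 (0.24) higher in all 3, with limma adjusted p = 0.327 and 0.382.

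Of 9 tested USPs of p53, MYC and the cell cycle, USP2 rose and 8 did not pass, and the median was -0.038. USP7, a deubiquitinase of both p53 and MDM2, had 30.4, 28.6 and 28.5 FPKM in non-target libraries and 30.4, 29.2 and 24.7 in knockout ones (log2 fold change -0.056, 95% interval -0.41 to 0.30). USP10, which stabilizes cytoplasmic p53, had 35.98, 38.8 and 39.7 against 34.6, 38.98 and 33.01 FPKM (log2 fold change -0.10, 95% interval -0.45 to 0.24). USP36, the nucleolar enzyme, had a log2 fold change of 0.24 with all knockout libraries above all non-target ones (limma adjusted p = 0.387). USP28 and USP37, which act on MYC and cyclin A, had 0.13 and -0.10.

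None of the 11 tested OTU enzymes passed, and their log2 fold changes ran from -0.34 to 0.53. OTUD5, which tempers innate immune signalling and stabilizes p53, was nearest. It had 22.6, 19.04 and 19.8 FPKM in non-target libraries and 25.6, 28.97 and 34.5 in knockout ones, with no overlap between groups (log2 fold change 0.51 ± 0.17, limma adjusted p = 0.0882, and 0.0155 with the block). It passed without knockout replicate 1 (adjusted p = 0.0373). OTUB1, which blocks E2 enzymes such as UBE2N without catalysis, had 16.3, 21.2 and 21.8 against 19.4, 25.2 and 31.8 FPKM, and its groups overlapped. OTUD7B (Cezanne), specific for lysine-11 chains, and ZRANB1 (TRABID), which cuts atypical chains, had log2 fold changes of -0.18 and 0.29. YOD1, a partner of the ATPase VCP, varied widely between libraries, with 6.19, 4.14 and 4.05 FPKM in non-target libraries and 16.2, 5.66 and 3.86 in knockout. Knockout replicate 1 alone was high, and the log2 fold change of 0.53 became -0.0057 without it, beside a limma adjusted p = 0.467, and 0.0313 with the block.

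The 4 UCH enzymes were all tested and none passed. UCHL3, which acts on ubiquitin and NEDD8 precursors, had 15.3, 13.8 and 15.7 FPKM in non-target libraries and 17.5, 16.7 and 23.2 in knockout ones. Knockout replicate 3 was the highest, and every knockout library was above every non-target one (log2 fold change 0.32 ± 0.18, limma adjusted p = 0.296). UCHL5, which binds the proteasome through ADRM1, had 10.2, 14.3 and 14.4 against 10.97, 12.3 and 10.2 FPKM (log2 fold change -0.19, 95% interval -0.60 to 0.22). BAP1, the nuclear tumor suppressor that removes ubiquitin from H2A with ASXL proteins, had 16.01, 19.1 and 20.4 against 13.6, 22.3 and 22.5 FPKM. Both replicate 1 libraries were its lowest of their group (log2 fold change 0.042, 95% interval -0.45 to 0.53). UCHL1, abundant in neurons, was the lowest of the tested genes at 1.41, 1.01 and 1.42 against 1.29, 0.913 and 1.38 FPKM (log2 fold change -0.056, 95% interval -0.42 to 0.31).

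The 8 USPs assigned to receptor, TGF-beta and NF-kB signalling gave no call and a median of -0.14. USP18, which removes the ubiquitin-like ISG15 and is itself interferon-induced, had 3.83, 3.60 and 3.54 FPKM in non-target libraries and 2.47, 1.87 and 2.52 in knockout ones. All knockout libraries were lower (log2 fold change -0.51 ± 0.17, limma adjusted p = 0.085, and 0.0415 with the block). USP9X and USP34, very large enzymes, had log2 fold changes of -0.051 and -0.25, and USP25 one of 0.18. Reads of USP9X may be shared with its Y-linked copy.

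Of 8 USPs assigned to trafficking and membranes, none passed. USP20, which acts on the beta-2 adrenergic receptor, had 3.82, 3.53 and 3.62 FPKM in non-target libraries and 5.01, 6.16 and 6.87 in knockout ones, again without overlap (log2 fold change 0.58 ± 0.17, limma adjusted p = 0.06, and 0.0165 with the block). It also passed without knockout replicate 1 (adjusted p = 0.0192) and in limma without trend and robust options (adjusted p = 0.0498). Its close paralog USP33 had a log2 fold change of -0.035. USP8, which with STAMBP removes ubiquitin from receptors at endosomes, had 16.1, 13.1 and 12.9 against 10.9, 10.3 and 7.69 FPKM. Every knockout library was lower (log2 fold change -0.51, limma adjusted p = 0.112, and 0.0226 with the block). STAMBP itself had 9.01, 7.72 and 8.32 against 8.06, 11.3 and 9.36 FPKM, with overlap (log2 fold change 0.17, 95% interval -0.22 to 0.56). The mitochondrial USP30 and the endoplasmic reticulum enzyme USP19 had log2 fold changes of -0.025 and 0.086.

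USP5, which disassembles free ubiquitin chains, was the most abundant deubiquitinase transcript, at 28.9, 38.3 and 37.8 FPKM in non-target libraries and 35.3, 44 and 50.7 in knockout ones. The groups overlapped (log2 fold change 0.30, 95% interval -0.14 to 0.73). Its paralog USP13 and the proteasome-bound USP14 had log2 fold changes of -0.031 and -0.071. Among the 5 remaining USPs, USP54, long regarded as an inactive family member, had 5.45, 4.62 and 4.99 FPKM in non-target libraries and 2.63, 4.31 and 2.61 in knockout ones. All 3 knockout libraries were lower, replicate 2 least so (log2 fold change -0.55 ± 0.20, limma adjusted p = 0.118, and 0.0272 with the block). Without knockout replicate 2 it passed (adjusted p = 0.0468). USP39, a spliceosome protein without the catalytic residues, had 22.4, 21.97 and 22.7 against 26.3, 26.5 and 25.6 FPKM. The groups were tight and did not overlap (log2 fold change 0.22, limma adjusted p = 0.399). On each gene's own spread, a choice made after seeing the data, USP39 passed (adjusted p = 0.0184).

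In level, the tested deubiquitinases spanned means of 1.24 to 39.2 FPKM over 6 libraries, with 10 at 20 FPKM or more, 30 from 5 to 20 and 19 under 5. Their median was 7.90 FPKM, and that of all genes tested was 8.05. The 5 highest means were those of USP5 (39.2 FPKM), USP22 (37.9), USP10 (36.9), USP7 (28.6) and USP11 (25.6). The first 3 overlapped across libraries, so their order is not larger than the spread. Summed over the 59, the family made up 612 to 649.9 FPKM in non-target and 618 to 699.6 in knockout libraries, ranges that overlap.

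**Figure D3:**
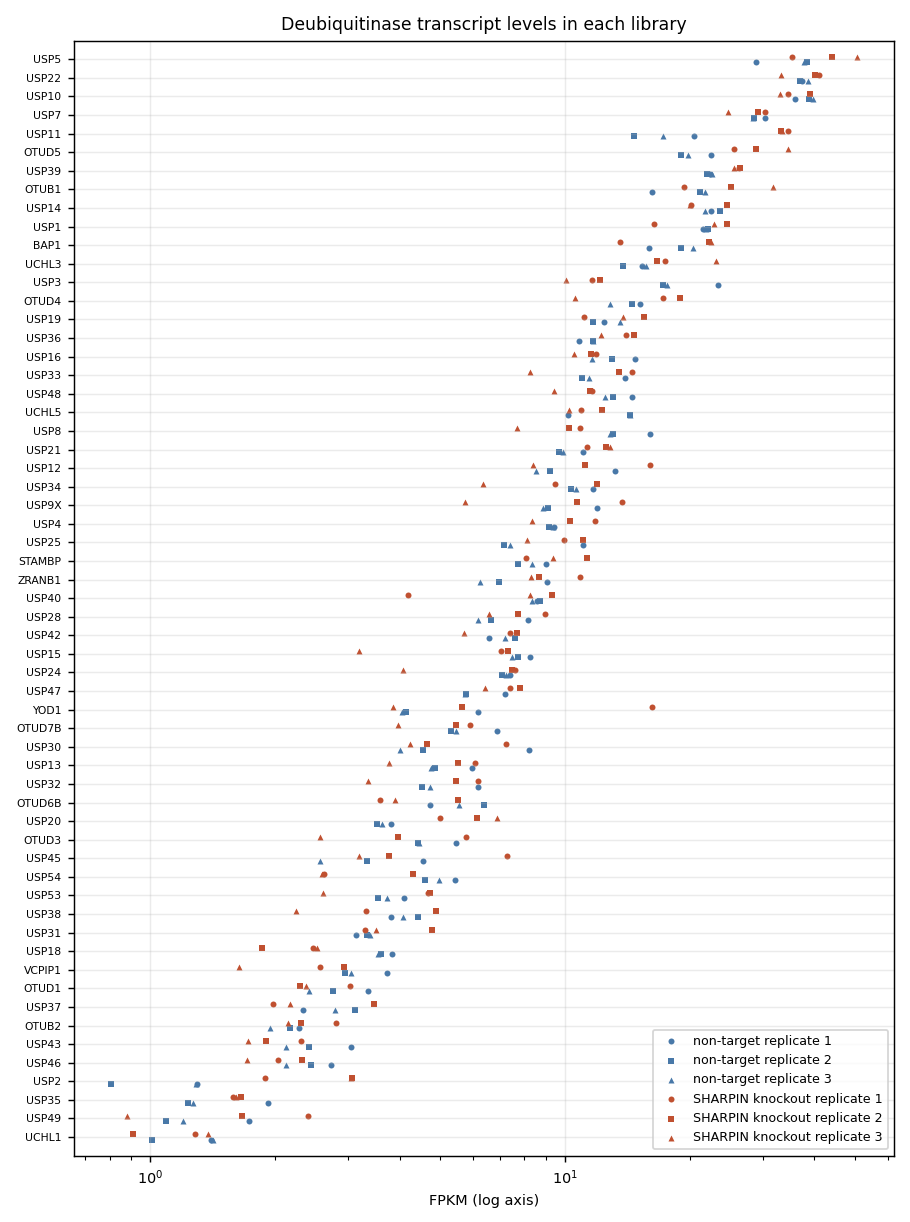
FPKM (log axis) of the 59 tested deubiquitinases in the 6 libraries, ordered by mean level, with blue for non-target, red for SHARPIN knockout and the symbol for the replicate. USP5, with a mean of 39.2 FPKM, is at the top and UCHL1, with 1.24, at the bottom, and most genes have interleaved red and blue points.

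The levels also differed between libraries of 1 genotype. Knockout replicate 3 held the lowest value of the 6 libraries for 29 of 59 deubiquitinases, against 3 to 10 for each other library. The difference was largest for long transcripts. Against the mean of knockout replicates 1 and 2, on log2(FPKM + 1), its median difference was 0.037 for the 20 genes with canonical transcripts of 931 to 4185 nucleotides and -0.57 for the 20 with 6515 to 18865. All 20 of the long ones were below 0, and 10 of the short ones. Over all genes tested in the same length classes the medians were 0.18 and -0.40. Spearman's rho between length and this difference was -0.70 across the 59 genes and -0.55 across 12165 genes with a length, given without p because genes of 1 library share its depth and preparation. The log2 fold change between genotypes also fell with length, with rho of -0.305 across the 59 and -0.189 across the 12165. Its median over the deubiquitinases was 0.070 in the short class and -0.14 in the long class. The middle class, 19 genes of 4293 to 6396 nucleotides, had 0.086, so the medians did not fall steadily. USP8 (18865 nucleotides) and USP54 (6792) are in the long class.

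The long USP15 stood in that library at 3.19 FPKM against 7.04 and 7.30 in knockout replicates 1 and 2, and USP9X at 5.75 against 13.7 and 10.7. The short OTUB1 went the other way, at 31.8 against 19.4 and 25.2 FPKM. With the length trend removed from each library, a choice made after seeing the data, 4 deubiquitinases rose (USP2, USP11, USP20 and OTUD5) and 2 fell (USP3 and USP18), 10.2% against 14.3% of all genes. Without knockout replicate 3, USP11 alone passed, or 1.69% of the 59, against 9.43% of all genes.

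Replicate 1 also deviated from replicates 2 and 3 in both genotypes, though in knockout it was not clearly the odd library. Over the 59 genes, knockout replicates 1 and 2 had a median absolute difference of 0.195 on log2(FPKM + 1), against 0.274 for replicates 2 and 3. The correlations of these pairs were 0.943 and 0.966. In knockout the deviation also takes in the low values of replicate 3 for long transcripts, as for USP9X. In 35 of 59 deubiquitinases replicate 1 was above the mean of replicates 2 and 3 in both groups, and in 12 below it in both. These counts were not taken over all genes tested. YOD1, USP30, USP12 and USP45 were among the higher ones: USP30 had 8.19, 4.57 and 4.02 FPKM in non-target libraries and 7.22, 4.65 and 4.25 in knockout, and USP12 13.2, 9.20 and 8.52 against 16.1, 11.2 and 8.39. BAP1, OTUB1 and USP5 were lower in both. The 2 deviations correlated across the 59 genes with Pearson's r of 0.63, and across all 13092 genes with 0.55. The labels do not say what the number marks, and why replicate 1 differed was not tested. Calls with the replicate block and without both replicate 1 libraries are given in other paragraphs.

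**Figure D4:**
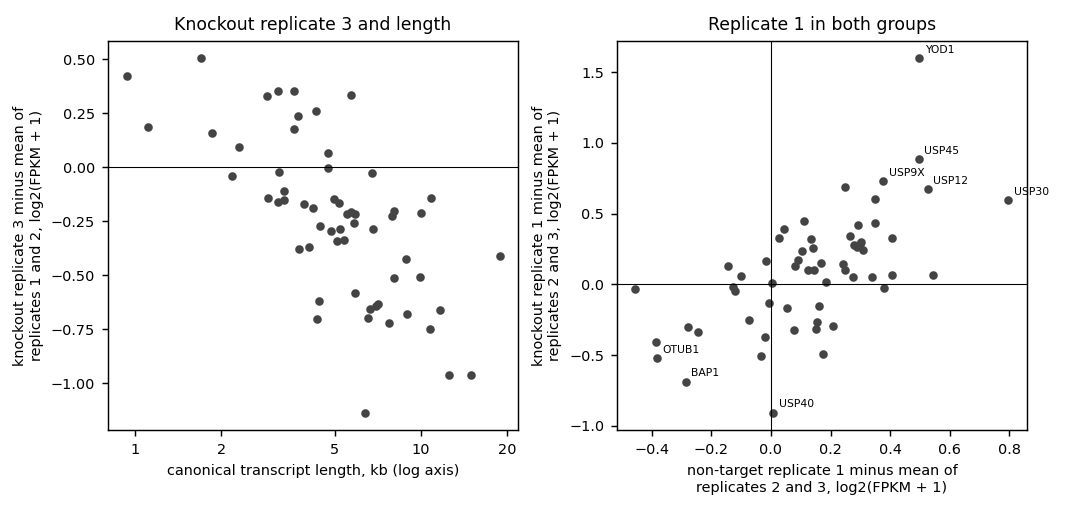
Left, the difference of knockout replicate 3 from the mean of knockout replicates 1 and 2 on log2(FPKM + 1) against canonical transcript length (log axis) for each tested deubiquitinase; right, the difference of replicate 1 from replicates 2 and 3 in knockout (y axis) against that in non-target libraries (x axis). Points fall with length on the left (rho -0.70) and run from lower left to upper right on the right (r 0.63), each point being 1 gene.

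Outside the family, of 15 measured deubiquitinases of the JAMM, Josephin, MINDY and ZUFSP families, STAMBPL1 rose, MINDY1 and MINDY4 fell and 12 did not pass. The share called was 20%, where 12.2% of all genes tested were called. MINDY4 had 1.76, 2.25 and 2.56 FPKM in non-target libraries and 0.133, 0.119 and 0.185 in knockout ones. It reached the filter through the non-target libraries alone, so a called difference was favoured by the filter; with no filter the limma adjusted p = 0.00202. Its log2 fold change was -1.47 with a pseudocount of 1, -2.05 with 0.5 and -3.21 with 0.1. MINDY1, which trims lysine-48 chains, had 4.47, 3.72 and 4.01 against 1.52, 2.21 and 1.51 FPKM (log2 fold change -0.89 ± 0.18, limma adjusted p = 0.00981). Both passed without any single library. STAMBPL1, the relative of STAMBP that cuts lysine-63 chains, rose from 14.9, 12.3 and 13.3 to 18.2, 24.1 and 25.8 FPKM (log2 fold change 0.70, limma adjusted p = 0.0331), but the call was lost without any library except knockout replicate 1 (adjusted p up to 0.162).

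None of 5 measured genes of linear-chain and other OTU-type deubiquitinases outside the family passed, and OTULIN had the smallest p, with a log2 fold change of -0.29 (limma adjusted p = 0.397). Of 20 partners and cofactors none passed, and with the block 1 rose, the proteasome ubiquitin receptor ADRM1 (limma adjusted p = 0.333, and 0.0148 with the block). ASXL2, a partner of BAP1, was nearest at -0.48 (limma adjusted p = 0.233). Of 38 ubiquitin genes, E1 and E2 enzymes, UBE2E2 rose and 37 did not pass, or 2.63% called, against 12.2% of all genes tested. With the block 5 rose, where 13.5% of all genes tested rose. The E2 enzyme UBE2E2 had 12.5, 10.01 and 10.96 FPKM in non-target libraries and 18.1, 17.7 and 20.2 in knockout ones (log2 fold change 0.69, limma adjusted p = 0.0202), a call lost when non-target replicate 2 or 3, or the second knockout library, was left out (adjusted p up to 0.143). None of 9 SUMO and NEDD8 proteases passed, with DESI2 nearest at 0.25 (limma adjusted p = 0.443).

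The 8 deubiquitinases that missed the filter were OTUD7A, USP6, USP17L2, USP17L7, USP27X, USP44, USP50 and USP51. USP27X, a paralog of USP22, had 1.34, 0.881 and 0.869 FPKM in non-target libraries and 0.805, 1.31 and 0.971 in knockout ones, and USP50 had 1.25, 0.885 and 0.817 against 0.853, 0.665 and 0.878. OTUD7A stood at 0.501, 0.386 and 0.847 against 0.854, 0.563 and 0.315 FPKM. USP6, USP51, USP44 and the USP17L genes were at 0.116 FPKM or less in every library, and USP44 was listed above 0 in non-target replicate 3 and knockout replicate 2 only. USP17L genes are near-identical copies and USP6 shares most of its sequence with USP32, so their values are uncertain wherever counting divided reads between copies.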

How the data were processed

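Poly-A RNA of 6 LoVo samples was made into dUTP-marked libraries and sequenced by DNBSEQ, per the labels' protocols. Alignment to hg19 used TopHat2 2.1.1, and the authors computed the deposited FPKM values with STAR 2.7.10b, per the submitters' processing notes and design text. A symbol missing from a library's list was set to 0. The test was limma 3.58.1 (R 4.3.3), trend and robust options on, fitted to log2(FPKM + 1) of genes at 1 FPKM or more in 3 or more of 6 libraries, two-sided and Benjamini-Hochberg adjusted. Fold changes are on that log2 scale, computed from the deposited values. The fit was tested on simulated data. FPKM hold no counts, so no count test or counting interval is given. Members, roles and lists were chosen with earlier results of these data known. Named are members past the threshold, the smallest p in each role, the 5 highest means, all UCH enzymes and, in other lists, up to 4 past the threshold or the smallest p; others are named as examples of their role or pattern, after their values were seen. Coordinates and lengths are from GENCODE on GRCh37, promoters from RefSeq on GRCh38.p14. 87.8% of symbols matched GENCODE.

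The groups share replicate numbers, which the labels do not explain. As a check, each library's deviation from its group mean was compared with that of the library of the same number: the correlations were 0.547, 0.309 and 0.331. Each exceeds 0.1, and the numbers were therefore treated as pairs in an alternative fit, the replicate block. The main fit used no pairing. Replicates 2 and 3 are not told apart by it, since the crossed pairs gave 0.320 and 0.321. Deviations within a group sum to 0. A shared deviation of replicate 1 can therefore raise the correlations among replicates 2 and 3, so the check cannot establish their pairing. Alternatives were an unfiltered fit, a filter at a mean of 5 FPKM, pseudocounts of 0.1 and 0.5, TPM and median-ratio scaling, limma without trend, the replicate block, non-target replicates 2 and 3 as 1 sample, and leaving out each library or both replicate 1 libraries. Others were added after seeing the data: removal of a length trend, and each gene's own spread with and without the block.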

Additional observations from a re-analysis of the deposited data

How the results depend on the processing

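USP11 rose in every setting tried except the replicate block on each gene's own spread (limma adjusted p = 0.18). As designed, limma called 1597 genes, with 2 deubiquitinases higher and 1 lower, and both pseudocounts and both scalings called these same 3 deubiquitinases. With a replicate block 3309 genes passed, with 5 deubiquitinases higher and 4 lower, and the block changed no other call among the 59. Outside them, the JAMM enzyme BRCC3 fell with the block (limma adjusted p = 9.57e-04, and 0.108 without it). On each gene's own spread the block gave 0 genes in all, 0 deubiquitinases higher and 0 lower, and without the block 715 genes, with 2 deubiquitinases higher (USP11 and USP39) and 0 lower. Limma without trend and robust options gave 3 higher, adding USP20, and 1 lower. With no filter 1773 genes passed (7.89%), with 1 deubiquitinase higher (USP11) and 1 lower (USP3), or 2.99% of 67. At a mean of at least 5 FPKM 865 genes passed (10.1%), with the same 1 higher and 1 lower, or 5% of 40. USP2, at a mean of 1.90 FPKM, was not tested there. Non-target replicates 2 and 3 correlated at 0.997 over all genes tested, against 0.946 to 0.980 for the other pairs within a group. Whether they are independent samples was not tested. Counting them as 1 sample left 944 genes (7.21%), 1 deubiquitinase higher, USP11 (1.69% of 59), and 0 lower. USP2 (limma adjusted p = 0.104) and USP3 (limma adjusted p = 0.0701) did not pass there. Leaving out 1 library gave 911 to 1970 genes, 1 to 4 deubiquitinases higher and 0 to 1 lower. Leaving out both replicate 1 libraries gave 4 higher and 1 lower, USP3 (8.47% of deubiquitinases against 17.4% of all genes), and removing the length trend 4 higher and 2 lower. Some signs turned, in genes that did not pass in any setting tried, except YOD1, which passed with the block. SHARPIN stood at 0.12 without both replicate 1 libraries and -0.41 to 0.17 with 1 library left out. BAP1 stood at -0.044 with TPM scaling, -0.0028 with median-ratio scaling and -0.075 to 0.27 with 1 library left out. USP22 stood at -0.075 with TPM scaling, -0.033 with median-ratio scaling, -0.049 without both replicate 1 libraries and -0.043 to 0.11 with 1 library left out. USP7 stood at 0.0088 with the length trend removed and -0.11 to 0.029 with 1 library left out, UCHL1 at -0.14 to 0.040 with 1 library left out and YOD1 at -0.0057 to 0.91 with 1 library left out. The cause was not tested. The number of libraries and the FPKM unit, which holds no counts, limit what small differences of genes near 1 FPKM can show.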

Other observations

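UBE2E1, CDC34 and UBE2S, E2 enzymes that hand ubiquitin to ligases, stood higher in all 3 libraries labelled knockout without passing the test. These genes were chosen after their values were seen and are examples, not a result about E2 enzymes. In their list of 38 ubiquitin genes, E1 and E2 enzymes, 5 rose with the block. The main test called 2.63% of that list, against 12.2% of all genes tested. Of all genes tested, 16.5% stood higher without overlap between groups, and 13.5% rose with the block. For lower values these shares were 15.7% and 11.8%. UBE2E1, a close relative of UBE2E2, had 68.6, 46.02 and 51.7 FPKM in non-target libraries and 91.9, 79.6 and 82.9 in knockout ones (limma adjusted p = 0.0613, and 0.00258 with the block). CDC34, the E2 of cullin ligases, had 36.7, 39.8 and 38.4 against 52.03, 52.7 and 81.4 FPKM (limma adjusted p = 0.0662, and 0.00128 with the block). UBE2S, which extends lysine-11 chains for the anaphase-promoting complex, had 92.6, 135 and 129.7 against 198, 147 and 232 FPKM (limma adjusted p = 0.0812, and 0.00111 with the block). BRCC3, the JAMM enzyme of the BRCA1-A and BRISC complexes, was lower in all 3 knockout libraries, at 7.42, 8.74 and 8.52 against 2.50, 6.22 and 5.53 FPKM (limma adjusted p = 0.108, and 9.57e-04 with the block).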
